A study of Mus musculus with 8 samples.

Results

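For the arrays, skin was taken after an intradermal footpad injection, and the skin injected with vehicle alone was the comparator for the skin injected with pituitary adenylate cyclase-activating polypeptide (PACAP). Here that vehicle-injected skin was compared with itself, 60 against 30 min after the injection. The vehicle was saline with 0.1% bovine serum albumin, given as 5 µL into the centre of the footpad of anaesthetised male mice of 9 to 10 weeks, and forepaw skin was taken. The mice were WT mice or PAC1R KO mice, which lack the PACAP receptor PAC1R (gene Adcyap1r1), and the sample labels give the strain of both as C57BL/6J. The study used 6 mice per genotype, and the methods do not say how many mice made up an RNA sample or whether both injections were given to the same animal. The anaesthetic was the same in both genotypes and at both times, and there was no uninjected or unanaesthetised skin and no earlier time point, so a gene at 60 min is described only against 30 min.

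Expression was measured on 8 two-colour mouse arrays of 44397 spots. Each array carried vehicle-injected and PACAP-injected skin of the same genotype and time in the 2 dyes, and each pair of RNA samples was hybridised again with the dyes exchanged. The vehicle channel was Cy3 on the first and Cy5 on the second array of each pair. These 8 vehicle channels, of 16 in all, were averaged over the dye swap to 4 vehicle samples (WT and PAC1R KO, 30 and 60 min) of 8 skin samples in all. Each genotype and time was therefore a single RNA sample, and the 2 dyes repeat the measurement and not the animal. WT samples were on one slide and PAC1R KO samples on the other, which means that the genotype cannot be told apart from the slide. On both slides the 30 min samples occupied array positions 1 and 2 and the 60 min samples positions 3 and 4, so time and array position cannot be told apart either. The share of spots well above background in the vehicle channel was higher at 60 than at 30 min in every genotype and dye, from 54.0% to 57.1% for WT in Cy3, from 84.6% to 91.6% for WT in Cy5, from 61.8% to 62.8% for KO in Cy3 and from 88.7% to 94.5% for KO in Cy5. The part of this shift in the results below was not tested.

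A needle track and a small volume of fluid are an injury to the skin. Damaged keratinocytes, mast cells and resident macrophages are known to release stored alarm signals, and the transcription factors NF-kappa-B and AP-1 then switch on chemokine genes such as Cxcl1 and Ccl2, which draw neutrophils and monocytes to the site, together with the cytokines Il1b and Il6. The immediate early genes (Fos, Egr1 and their relatives) are transcribed from factors already present in the cell and are short-lived, whereas cytokine messages follow later, and feedback inhibitors such as Tnfaip3 and Socs3 are induced in the same wave. Palm skin of the mouse is thick, rich in eccrine sweat glands and free of hair, and borders on haired skin with its follicles and sebaceous glands, and on muscle and bone.

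The identity of the tissue was checked first. All 20 genes of an epidermal list were measured, with median log2 intensities of 15.18 and 14.94 in WT skin at 30 and 60 min and 15.3 and 15.12 in PAC1R KO skin. Aqp5, the water channel of eccrine secretory cells, had log2 intensities of 14.3 and 14.4 in WT and 14.2 and 14.2 in PAC1R KO skin. Adcyap1r1 itself had log2 intensities of 8.29 and 8.67 in WT skin and 7.98 and 8.56 in PAC1R KO skin. Whether its probe lies in the deleted part of the gene is not given in the sources used here, so this signal does not check the genotype. Log2 intensities depend on the probe and are compared only within a probe.

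Of 24905 probes tested, none passed an adjusted p of 0.05 for 60 against 30 min over the 4 vehicle samples with genotype as a term (limma, Benjamini-Hochberg). The smallest adjusted p was 0.12, which many probes shared, and 4144 probes had an adjusted p under 0.15. With 1 residual degree of freedom the test has little reach. At an unadjusted p under 0.05, 2659 probes (10.7% of those tested) were higher and 3644 (14.6%) were lower at 60 min. In place of a test, genes are described below by size, as probes at least 2.0-fold different with the same sign in both dyes. In WT skin 76 probes were higher at 60 min (0.305% of those tested) and 76 were lower (0.305%). In PAC1R KO skin 270 were higher (1.08%) and 48 were lower (0.193%). This balance depends on the settings, since in PAC1R KO skin 901 probes were higher and 802 lower with the scanner software's own processed signals (quantile normalized), 252 and 87 with median centring in place of Aquantile scaling, and 765 and 1030 at a limit of 1.5-fold.

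The 60 minus 30 min differences of the 2 dyes correlated with r = 0.857 in WT and r = 0.816 in PAC1R KO skin over the 24905 probes, which shows how well the same RNA was measured again. The corresponding value between the genotypes was r = 0.383. These are descriptions over probes, which share arrays and samples. The SD between dyes of a difference was 0.117 in WT and 0.178 in PAC1R KO skin on the log2 scale, against an SD over probes of 0.293 and 0.385. The dye SD covers labelling and hybridisation and not the spread between animals.

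**Figure D1:**
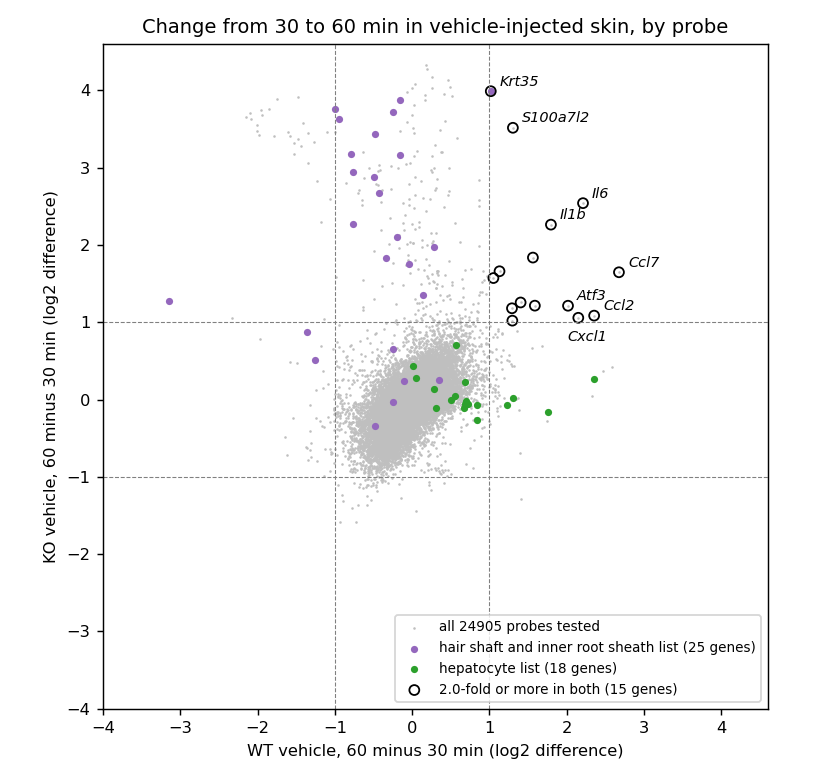
Difference in log2 intensity, 60 minus 30 min, in vehicle-injected WT skin (x axis) and PAC1R KO skin (y axis) for the 24905 probes, each point being the mean of 2 dyes. The 15 probes at least 2.0-fold higher in both genotypes are circled, hair genes (purple) run up the KO axis and hepatocyte genes (green) out along the WT axis.

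Only 15 probes, of 15 genes, passed the 2.0-fold rule in both genotypes with the same sign, 0.0602% of those tested, and all of them were higher at 60 min. These were Il6, Il1b, Ccl7, Ccl2, Cxcl1, Cd83, Atf3, Tnfaip3, Nfil3, Krt35, S100a7l2, Fa2h, Defb6, Gstm1 and Ppp1r3c. Their selection rests on these same differences, so the values below are a description. The absence of shared probes that were lower depends on the processing. With the scanner software's processed signals, 250 probes were higher and 188 lower in both genotypes, with median centring in place of Aquantile scaling 12 were higher and 3 lower, and with a smaller offset in the background correction 36 were higher and 3 lower. All 15 genes were still counted with the scanner's signals, and 12 of 15 with median centring, which left out Krt35, Cxcl1 and Ppp1r3c. At 3.0-fold, 3 of the genes (Il6, Ccl7 and Il1b) stayed above the limit in both genotypes. Just inside the 2.0-fold limit, the smaller of the 2 differences was 1.02 on the log2 scale for both Krt35 and Ppp1r3c. The 5 probes nearest the limit on its outer side, down to a smaller difference of 0.96, went in both directions. Those that were higher were of Dusp2, a phosphatase that switches off MAP kinases, at 1.00 in WT and 1.59 in PAC1R KO skin, the sebaceous gene Far2 at 0.97 and 1.6, and Socs3, the feedback inhibitor of Il6 signalling, at 0.96 and 1.37. Those that were lower were of the epithelial factor Trp63 (not its brightest probe) at -1.14 and -0.99 and the mitotic motor Kifc1 at -0.97 and -1.10.

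Cytokines and chemokines made up the largest functional group of the 15. Il6, the cytokine that drives the acute phase, had log2 intensities of 7.01 at 30 min and 9.22 at 60 min in WT skin, and of 7.20 and 9.75 in PAC1R KO skin (probe at chr5:30346367-30346426, mm9). Both 60 min samples stood above both 30 min samples, by 4.63-fold in WT and 5.82-fold in PAC1R KO skin. The mean difference was 2.38 ± 0.117 on the log2 scale (SE, limma, adjusted p = 0.12). Il1b, the inflammasome-processed interleukin, had log2 intensities of 7.59 and 9.39 in WT and 7.63 and 9.89 in PAC1R KO skin, which is 3.47-fold and 4.80-fold. For Il6 and Il1b the 30 min levels of the genotypes were close to each other, and the 60 min levels were slightly higher in PAC1R KO skin.

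The 3 chemokines had another shape, starting higher in PAC1R KO skin and ending higher in WT skin. Ccl2, a ligand of the monocyte receptor Ccr2, had log2 intensities of 10.22 and 12.57 in WT and 10.96 and 12.04 in PAC1R KO skin, a 5.11-fold and a 2.12-fold difference. Ccl7, a second Ccr2 ligand encoded next to Ccl2, went from 9.71 to 12.39 in WT and from 10.57 to 12.22 in PAC1R KO skin, or 6.39-fold and 3.13-fold. Cxcl1, which attracts neutrophils through Cxcr2, went from 10.25 to 12.40 and from 10.95 to 12.01, or 4.44-fold and 2.08-fold. Whether the fold differed between the genotypes could not be tested with 1 sample of each.

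**Figure D2:**
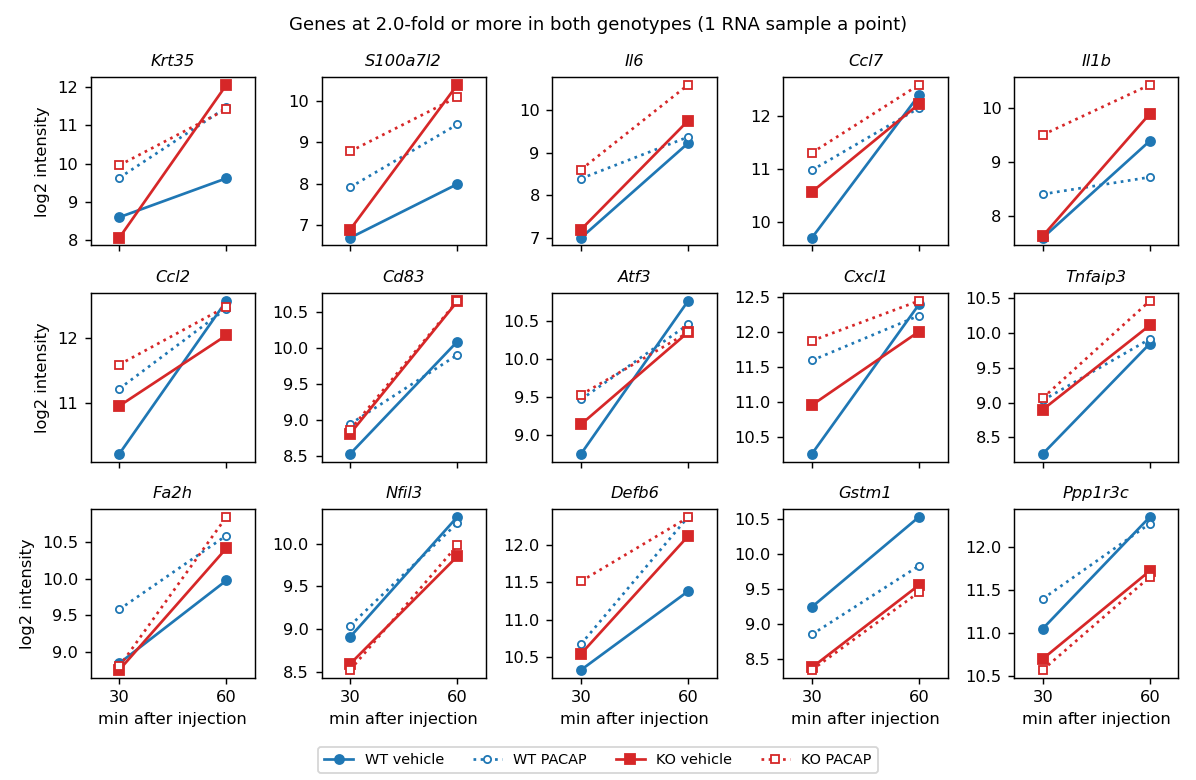
Normalized log2 intensity (y axis) at 30 and 60 min (x axis) of the 15 genes counted in both genotypes, in vehicle-injected skin (solid lines) and PACAP-injected skin (dotted lines) of WT and PAC1R KO mice, each point being 1 RNA sample averaged over 2 dyes. Every line slopes upwards, and Krt35 and S100a7l2 have much steeper vehicle lines in PAC1R KO than in WT skin.

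The median of the cytokine and chemokine list was above 0 in both genotypes. The list holds 5 of the shared genes, which were selected on these same differences. It was also chosen with earlier results of these data known, so its counts are a description. Of 24 genes, 19 were measured, with median differences of 0.85 in WT and 0.56 in PAC1R KO skin on the log2 scale, against 0.01 and -0.02 over all genes. Of the 19, 1 had passed the filter on dim probes through WT skin at 60 min alone. Another 1 had passed it through PAC1R KO skin at 60 min alone. Over all 24 genes, with no such filter, the medians were 0.46 and 0.39. Of these 24, 23 lay above 0 in WT and 18 in PAC1R KO skin. In both genotypes 16 of the 19 lay above 0, compared with 33.9% of all genes, and none lay below 0 in both. At least 2.0-fold higher were 8 in WT (0.338% of all genes) and 7 in PAC1R KO skin (1.2%), and 5 of them, the genes above, in both. Tnf, the early macrophage and mast cell cytokine, had log2 intensities of 6.44 and 7.56 in WT and 6.49 and 7.41 in PAC1R KO skin, just under 2.0-fold in the latter. Cxcl2, the neighbour and relative of Cxcl1, differed by 1.32 in WT and 0.43 in PAC1R KO skin, and Ccl3 by 1.18 and 0.65. The interferon-induced Cxcl10 differed by 0.93 and 1.55, and Cxcl5 by 0.85 and 1.13. Cxcl9 was at least 1.47-fold higher in WT skin, its 30 min sample not being well above background, and differed by 0.33 in PAC1R KO skin. Of the stored alarm cytokines, Il1a was below 0 in WT and above 0 in PAC1R KO skin, at -0.25 and 0.34. Il33 was near 0 in both, at 0.05 and -0.06.

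Among the regulators in the shared set, Atf3, a stress-induced factor of the AP-1 and CREB families, had log2 intensities of 8.75 and 10.76 in WT and 9.14 and 10.35 in PAC1R KO skin (4.04-fold and 2.32-fold). Tnfaip3, the ubiquitin-editing enzyme A20 that ends NF-kappa-B signalling, went from 8.26 to 9.85 in WT and from 8.90 to 10.12 in PAC1R KO skin, differences of 1.59 and 1.22. Nfil3, a bZIP repressor linked to the clock and to immune cells, went from 8.91 to 10.31 and from 8.60 to 9.85. Cd83, a surface protein of activated dendritic and B cells, went from 8.53 to 10.09 and from 8.81 to 10.65, or 2.95-fold and 3.57-fold. Ppp1r3c, which targets protein phosphatase 1 to glycogen, differed by 1.30 in WT and 1.02 in PAC1R KO skin. Gstm1, a glutathione transferase, differed by 1.29 and 1.18 at the probe counted, and by 1.35 and 0.89 at its brightest probe.

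The remaining 4 shared genes are known from epithelia. Krt35, a hair shaft keratin, had log2 intensities of 8.60 and 9.62 in WT and 8.06 and 12.05 in PAC1R KO skin, which is 2.02-fold and 15.9-fold, and is treated with the hair genes below. S100a7l2, of the antimicrobial S100 group, went from 6.68 to 7.99 in WT, where it was well above background on 1 of 2 arrays at 30 min, and from 6.88 to 10.40 in PAC1R KO skin, an 11.4-fold difference. Fa2h, which makes the 2-hydroxylated fatty acids of skin lipids, differed by 1.13 and 1.66, and Defb6, a beta-defensin, by 1.05 and 1.57. In bulk tissue, more cells of a type and more RNA per cell cannot be told apart.

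The promoters of the shared genes were read for the binding sequences of the factors named above. RefSeq promoters (GRCm38.p6) were given for 10 of the 15 genes. Those of Il6, Cxcl1 and Tnfaip3 are shown because each holds a match to the NF-kappa-B motif and they stand for the cytokine, chemokine and feedback roles. Each is the 250 bases before the gene's start, written 5′ to 3′ on the gene's strand, with matches to the NF-kappa-B and AP-1 motifs on either strand in capitals. They are at chr5:30012864-30013113 on the plus strand for Il6, chr5:90890995-90891244 on the plus strand for Cxcl1 and chr10:19015411-19015660 on the minus strand for Tnfaip3.
Il6: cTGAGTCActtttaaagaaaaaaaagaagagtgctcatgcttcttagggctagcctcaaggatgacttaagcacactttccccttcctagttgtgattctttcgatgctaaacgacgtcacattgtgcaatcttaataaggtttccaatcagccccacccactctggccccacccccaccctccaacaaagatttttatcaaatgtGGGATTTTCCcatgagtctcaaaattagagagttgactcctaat
Cxcl1: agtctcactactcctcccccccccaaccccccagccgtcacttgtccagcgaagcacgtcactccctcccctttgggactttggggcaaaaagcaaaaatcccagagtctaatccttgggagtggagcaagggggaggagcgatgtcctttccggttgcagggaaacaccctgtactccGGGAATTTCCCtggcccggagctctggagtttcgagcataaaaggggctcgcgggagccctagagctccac
Tnfaip3: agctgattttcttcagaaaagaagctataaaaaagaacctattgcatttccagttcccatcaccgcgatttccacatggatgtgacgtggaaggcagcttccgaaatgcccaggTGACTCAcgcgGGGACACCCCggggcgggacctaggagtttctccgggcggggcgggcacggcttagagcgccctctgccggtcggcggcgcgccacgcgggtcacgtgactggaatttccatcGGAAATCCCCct

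In Il6 the NF-kappa-B match lies 44 to 35 bases before the start and an AP-1 match (TGANTCA) 249 to 243 bases before it. In Cxcl1 the capitals, 71 to 61 bases before the start, are 2 overlapping NF-kappa-B matches, one on each strand. Tnfaip3 holds 2 NF-kappa-B matches, at 125 to 116 and 12 to 3 bases before the start, and an AP-1 match at 136 to 130, and another annotated start of the gene has no match to either motif. Over the 10 genes, 4 held an NF-kappa-B match (Cxcl1, Defb6, Il6 and Tnfaip3), compared with 4.46% of 27025 genes, and 3 held the AP-1 motif (Il6, S100a7l2 and Tnfaip3), compared with 7.82%. The full cAMP response element TGACGTCA and the CArG box were in none of the 10, and in 1.77% and 1.62% of all genes. The shorter letters TGACG were in 6 of the 10 and in 19.8% of all genes. These are matches of letters in a short window and not measured binding.

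Immediate early transcription factors split by gene and by genotype. Of 26, 23 were measured, with median differences of 0.31 in WT and 0.05 in PAC1R KO skin. Fos had log2 intensities of 11.59 and 12.59 in WT and 12.36 and 11.20 in PAC1R KO skin, so that it was about as far above its 30 min level in WT as it was below it in PAC1R KO skin. Egr1 followed the same order, with 11.69 and 12.38 in WT and 12.52 and 11.68 in PAC1R KO skin. The 30 min levels of both were higher in PAC1R KO than in WT skin. Klf2, an endothelial zinc finger factor, likewise differed by 0.90 in WT and -0.37 in PAC1R KO skin. Others were above 0 in both genotypes, with 1.55 and 0.67 for Fosb, 1.1 and 0.81 for Egr2 and 1.03 and 0.61 for the nuclear receptor Nr4a1. Jun (-0.27 and -0.45) and Klf4 (-0.40 and -0.56) were below 0 in both. Each of these values is from 1 sample per genotype and time, and no difference between genotypes was tested.

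**Figure D3:**
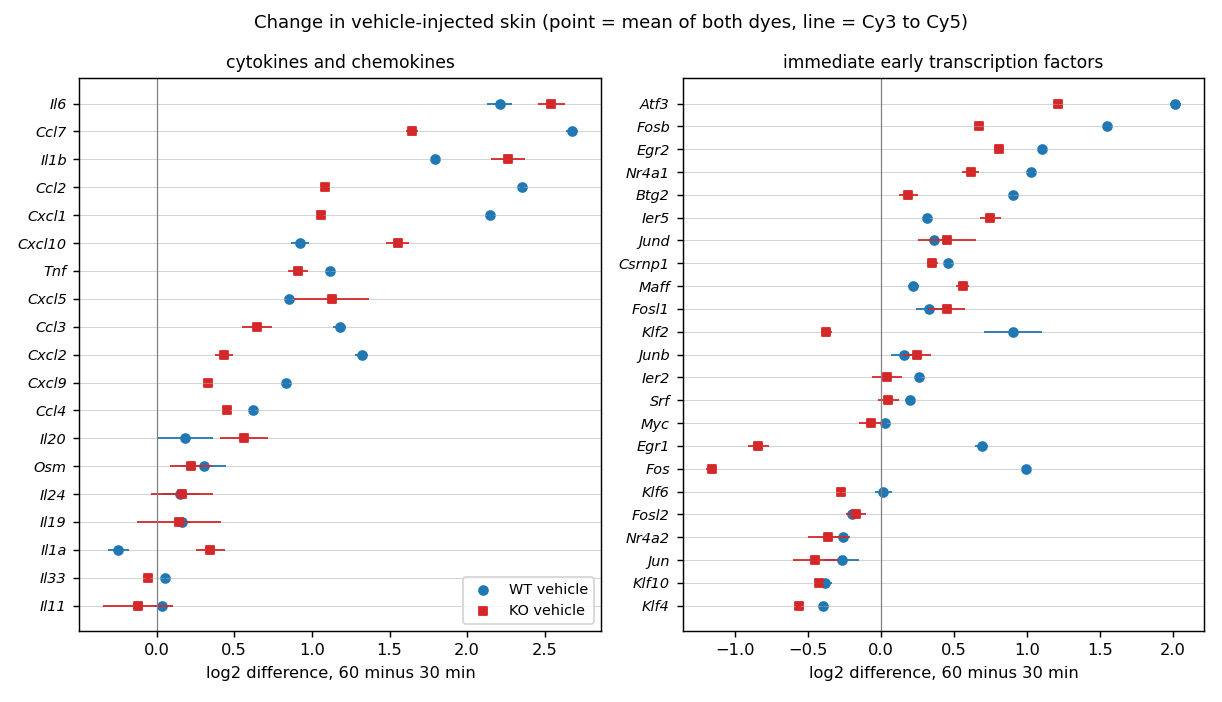
Difference in log2 intensity, 60 minus 30 min, for members of the cytokine and chemokine list and of the immediate early list in vehicle-injected WT and PAC1R KO skin. Points are the mean of 2 dyes and lines join the Cy3 and Cy5 values, so the lines show repeated measurement of 1 RNA pair and not animals. The cytokines lie mostly right of 0 in both genotypes, whereas Fos and Egr1 lie on opposite sides.

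Feedback genes of these pathways were mixed. The list for NF-kappa-B and cytokine signalling (18 measured) had medians of 0.01 and 0.20, with Irf1 at 0.57 and 1.00, Nfkbia, the inhibitor that holds NF-kappa-B in the cytoplasm, at 0.25 and 0.31, Bcl3 at 0.00 and 0.94, and the mRNA-decay factor Zfp36 at 0.71 and -0.32. MAP kinase feedback genes (16) had medians of 0.13 and 0.05, Dusp1 being at 0.28 and -0.54 and Errfi1 at 0.53 and 0.72. CREB and cAMP feedback genes (12 of 13 measured), the arm that PACAP receptors are known to use, had medians of 0.14 and 0.33 in this vehicle-injected skin. EGF receptor ligands and injury matrix genes (20) had medians of -0.05 and 0.15, with 5 above 0 and 3 below 0 in both genotypes. Of these, Has1, which makes hyaluronan, differed by 0.91 and 1.67 and Hbegf, an EGF receptor ligand, by 0.85 and 0.45, while Ccn1 lay on opposite sides of 0 in the genotypes (0.75 and -0.62). Endothelial activation genes (12) had medians of 0.12 and 0.30, with 7 above 0 and 3 below 0 in both. Over the 9 well above background in all 4 samples the medians were 0.12 and 0.01. Of the 12, 1 had passed the filter on dim probes through PAC1R KO skin at 60 min alone. Among the 12, Apold1 differed by 0.78 and 1.00 and the vasodilator peptide gene Adm by 0.84 and 0.65. Glucocorticoid and metal response genes (16) had medians of 0.03 and 0.12, with 8 above 0 and 3 below 0 in both. Among the 8 were Fkbp5 (0.49 and 1.30), Tsc22d3 (0.47 and 0.68) and Cebpd (0.45 and 0.71).

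Leukocyte markers were mixed. The neutrophil list (16 of 20 measured) had medians of 0.29 and 0.40 on the log2 scale. Of the 16, 10 were above 0 and 4 below 0 in both genotypes. Over all 20 genes, with no filter on dim probes, the medians were 0.08 and 0.16. Over the 13 well above background in all 4 samples they were 0.09 and 0.40. S100a8 and S100a9, the subunits of calprotectin, differed by 1.16 and 0.98 in WT and 0.40 and 0.57 in PAC1R KO skin, and the lectin Clec4d by 0.90 and 1.40. Below 0 in both were Csf3r, the receptor of the granulocyte growth factor, at -0.34 and -0.41, the integrin chain Itgam at -0.36 and -0.56, Cxcr2, the receptor of Cxcl1, at -0.15 and -0.09, and Pglyrp1 at -0.11 and -0.001. The MHC class II and Langerhans cell list (10) had medians of 0.28 and 0.76, with 8 genes above 0 and 1 below 0 in both genotypes. Cd74, the invariant chain, was at 0.46 and 1.04 and Cd207 at 0.09 and 0.05. Epcam was at -0.32 and 0.06 and Ciita at -0.05 and -0.78. Mast cell genes (9 of 10 measured) had medians of 0.23 and 0.24.

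Several lists lay below 0 in both genotypes. Of the 16 cell cycle genes, 13 were below 0 in both, compared with 36.6% of all genes, with medians of -0.29 and -0.49. The mitotic kinase gene Aurka had log2 intensities of 9.87 and 9.12 in WT and 10.12 and 9.05 in PAC1R KO skin, and the differences were -0.58 and -1.37 for the proliferation marker Mki67 and -0.55 and -0.98 for Birc5. Of 15 circadian clock genes measured, 11 were below 0 in both. Dbp, the output factor of the clock, had log2 intensities of 13.25 and 11.89 in WT and 13.71 and 13.09 in PAC1R KO skin, and the heme receptor Nr1d1 differed by -1.35 and -0.78, while Cry1 differed by 0.65 and 0.40. Of 13 heat shock genes measured, 9 were below 0 in both, with medians of -0.08 and -0.24. Of the 20 epidermal genes, 11 were below 0 in both and none above 0 in both, with medians of -0.19 and -0.29. The wound epidermis list (17 of 18 measured) was not among these, with medians of -0.32 and 0.15 and with 4 genes above 0 in WT and 11 in PAC1R KO skin. Its member Krt16, the keratin of stressed and palmar epidermis, had log2 intensities of 15.17 and 13.55 in WT and 14.53 and 13.81 in PAC1R KO skin.

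Single probes with the smallest unadjusted p among those that were lower, chosen after their values were seen, included Trp63, the master factor of stratified epithelium, at -1.14 and -0.99 at that probe and -0.41 and -0.45 at its brightest probe. Maf was at -1.07 and -0.93, the mitotic genes Kifc1 and Plk1 at -0.97 and -1.10 and at -0.90 and -1.23, the hypoxia factor gene Epas1 at -0.76 and -0.88 and the nuclear RNA Neat1 at -0.75 and -0.80. As a measure of RNA integrity, the difference was compared between the more 5′ and the more 3′ of 2 probes in 2907 genes. The median of the 5′ minus the 3′ value was 0.04 in WT and 0.12 in PAC1R KO skin on the log2 scale, and the 5′ probe had the lower value in 43.2% and 32.1% of genes. The part of this in the lower values was not tested.

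**Figure D4:**
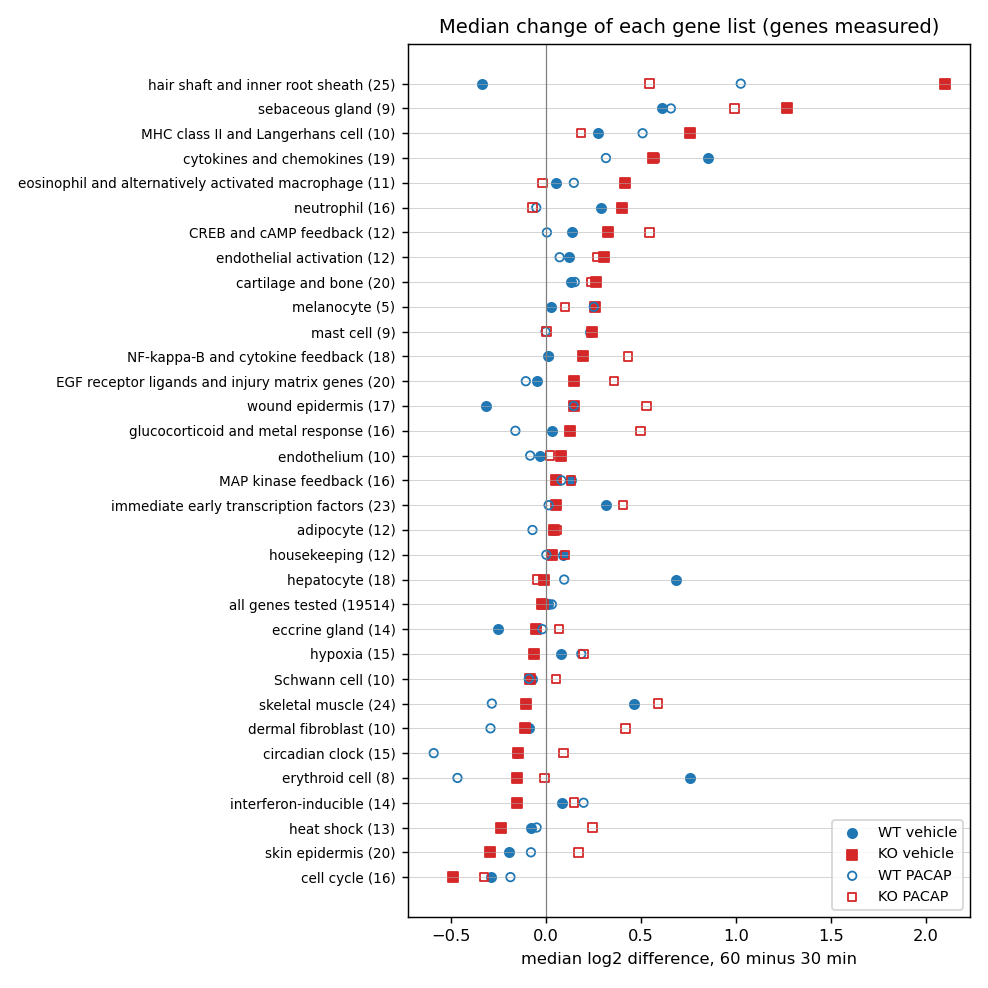
Median difference in log2 intensity, 60 minus 30 min, over the measured members of each gene list in WT and PAC1R KO skin, for vehicle-injected and PACAP-injected samples. The lists above 0 in both vehicle comparisons include the cytokine, sebaceous, MHC class II, neutrophil and mast cell lists. The hair list has the widest gap between the genotypes, -0.34 in WT against 2.10 in PAC1R KO skin.

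Many probes passed the 2.0-fold rule in a single genotype, with the other genotype under 1.5-fold. In PAC1R KO skin alone 171 probes were higher (0.687% of those tested) and 32 lower (0.128%), compared with 344 and 338 with the scanner's processed signals and 533 and 885 at 1.5-fold. In WT skin alone 44 were higher (0.177%) and 26 lower (0.104%). A further 30 probes (0.12%) were lower in WT and higher in PAC1R KO skin, and 1 (0.00402%) was the reverse.

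The set that was higher in PAC1R KO skin held many genes of the hair follicle. Of the 171 probes, 45 were of hair keratins or keratin-associated proteins (Krtap), and a further 17 of these were among the 30 opposite probes. Over every tested probe of these families, 86 probes of 71 genes, 72 were at least 2.0-fold higher in PAC1R KO skin (1.08% of all probes tested) and none lower (0.193%), and in WT skin 1 was higher (0.305%) and 19 were lower (0.305%). The median differences were 2.63 in PAC1R KO and -0.20 in WT skin. Of these probes 8 had passed the filter on dim probes through PAC1R KO skin at 60 min alone, and over all 91 probes on the array, with no filter, the counts were again 72 and 19 and the medians were 2.56 and -0.16. Krt71, of the inner root sheath, had log2 intensities of 11.01 and 10.53 in WT and 10.15 and 13.58 in PAC1R KO skin. Krt27, a type I keratin of the same sheath, had 9.80 and 9.55 in WT and 8.79 and 12.52 in PAC1R KO skin. In both, the sample that stood apart was PAC1R KO skin at 60 min. Krt36 had 10.92 and 7.77 in WT and 9.36 and 10.63 in PAC1R KO skin, so here the WT sample at 60 min stood lowest. For Krt85 the brightest probe differed by 0.24 and another probe by 3.81 in PAC1R KO skin. Of the 25 genes of the hair list measured, 23 were above 0 in PAC1R KO and 4 in WT skin, and the list's median level was 9.2, 8.94, 8.34 and 11.1 for WT at 30 and 60 min and PAC1R KO at 30 and 60 min. Among the 5 largest probes of this set with a name were Krtap5-5 at 4.08 and Krtap28-13 at 4.04.

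Other epithelial and immune genes were higher in the same PAC1R KO comparison. The sebaceous gland list (9 of 10 measured) had medians of 0.61 in WT and 1.27 in PAC1R KO skin. Of the 9, 7 were above 0 and 1 below 0 in both genotypes. Over all 10, with no filter on dim probes, the medians were 0.48 and 0.92. Awat1, a wax synthase of sebocytes, had log2 intensities of 9.53 and 10.30 in WT and 9.15 and 10.84 in PAC1R KO skin, and Elovl3, a fatty acid elongase, had 8.96 and 9.65 in WT and 8.72 and 10.40 in PAC1R KO skin. Of the list of eosinophils and alternatively activated macrophages (11 of 14 measured), 4 genes were at least 2.0-fold higher in PAC1R KO skin (1.2% of all genes) and none in WT skin (0.338%). A further 4 members, all under 2.0-fold, had passed the filter on dim probes through PAC1R KO skin at 60 min alone, and over all 14 genes, with no filter, the medians were 0.06 in WT and 0.33 in PAC1R KO skin. Retnla, a secreted marker of alternative activation, had 10.22 and 10.54 in WT and 10.35 and 13.20 in PAC1R KO skin, and Chil3 had 7.07 and 7.35 in WT and 7.75 and 9.80 in PAC1R KO skin. The eosinophil ribonuclease genes Ear2 and Ear1 differed by 2.07 and 1.29 in PAC1R KO and by 0.13 and 0.04 in WT skin. Of the 11 measured, 10 were above 0 in PAC1R KO and 8 in WT skin, most of them by less than 2.0-fold. Mrc1 differed by -0.30 and Arg1 by 0.29 in PAC1R KO skin, and by 0.02 and -0.37 in WT skin. Prg2, Siglecf and Ccr3, which passed the filter through PAC1R KO skin at 60 min alone, differed there by 0.38, 0.23 and 0.08.

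Of 20 hepatocyte genes 18 were measured, and 9 of these were well above background on both arrays in WT skin at 60 min alone, so that the filter itself chose them for being high in that sample. Over all 20, with no filter, the medians were 0.68 in WT and -0.01 in PAC1R KO skin, with 19 and 9 genes above 0. Over the 6 that were well above background in all 4 samples the medians were 0.41 and 0.27, with 6 and 4 genes above 0. Of the 41 gene names with probes higher in WT alone (0.177% of probes tested), 5 were of the hepatocyte list, and 2 of these, Fabp1 and Gc, had passed the filter through WT skin at 60 min alone. Fabp1, a liver fatty acid-binding protein, had log2 intensities of 6.21 and 7.96 in WT and 6.25 and 6.08 in PAC1R KO skin, and Alb, albumin, had 6.54 and 7.78 in WT and 6.53 and 6.46 in PAC1R KO skin. The largest differences in the set were 2.58 for Serpina1e, 2.47 for Serpina1c and 2.35 for Serpina1a, genes of the alpha-1-antitrypsin family, followed by 1.75 for Fabp1 and 1.74 for a probe of Apoa2, which has 0.31 at its brightest probe. The Serpina1 probes are not independent, since those of Serpina1a and Serpina1c share 50 of 60 bases and those of Serpina1c and Serpina1e 49 at the best offset. The median level of the 18 measured genes was 6.33 and 7.22 in WT and 6.4 and 6.35 in PAC1R KO skin, and 9 of the 18 were not well above background on both arrays in any sample other than WT at 60 min.

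Skeletal muscle genes (24) had medians of 0.46 in WT and -0.11 in PAC1R KO skin, with 23 and 10 of them above 0, while 1 was past 2.0-fold higher in WT skin (0.338% of all genes). Acta1, skeletal alpha-actin, had log2 intensities of 13.59 and 14.38 in WT and 13.80 and 13.99 in PAC1R KO skin, and Ttn, titin, had 11.31 and 11.53 in WT and 12.39 and 11.29 in PAC1R KO skin. Erythroid genes (8 of 10 measured) had medians of 0.76 and -0.15, with beta-globin Hbb-b2 at 0.99 and -0.28. Cartilage and bone genes (20 of 24 measured) had medians of 0.13 and 0.26. Of the 20, 1 had passed the filter on dim probes through PAC1R KO skin at 60 min alone. Over all 24, with no filter, the medians were 0.09 and 0.10. Over the 14 well above background in all 4 samples they were 0.30 and 0.26. The bone matrix genes Ibsp (1.19 and 0.28) and Mepe (1.09 and 0.52) were past 2.0-fold in WT skin. Past 2.0-fold lower in WT skin, with PAC1R KO skin under 1.5-fold, were the fibrillin gene Fbn1 at -1.54 and -0.23, Iffo2 at -1.32 and -0.07, and single probes of Ahnak and Krt6b that are not the brightest of their genes. The Ahnak probe was at -1.65 and -0.49, where the other 3 Ahnak probes were between -0.41 and -0.13 in WT skin. The Krt6b probe was at -1.49 and 0.47, where the brightest Krt6b probe was at -1.31 and -0.74. Past 2.0-fold lower in PAC1R KO skin, with WT skin under 1.5-fold, were Mki67, just under that limit in WT skin, Incenp at -0.54 and -1.30, Anp32a at -0.14 and -1.28 and Smc4 at -0.45 and -1.19. Eccrine gland genes (14 of 16 measured) had medians of -0.25 and -0.06, with 7 below 0 and 1 above 0 in both genotypes. Aqp5 differed by 0.03 and -0.02, Ano1 by -0.66 and -0.70 and Slc12a2 by -0.555 and -0.901. The housekeeping list had medians of 0.09 and 0.03. The part of these tissue lists in the other values was not tested.

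**Figure D5:**
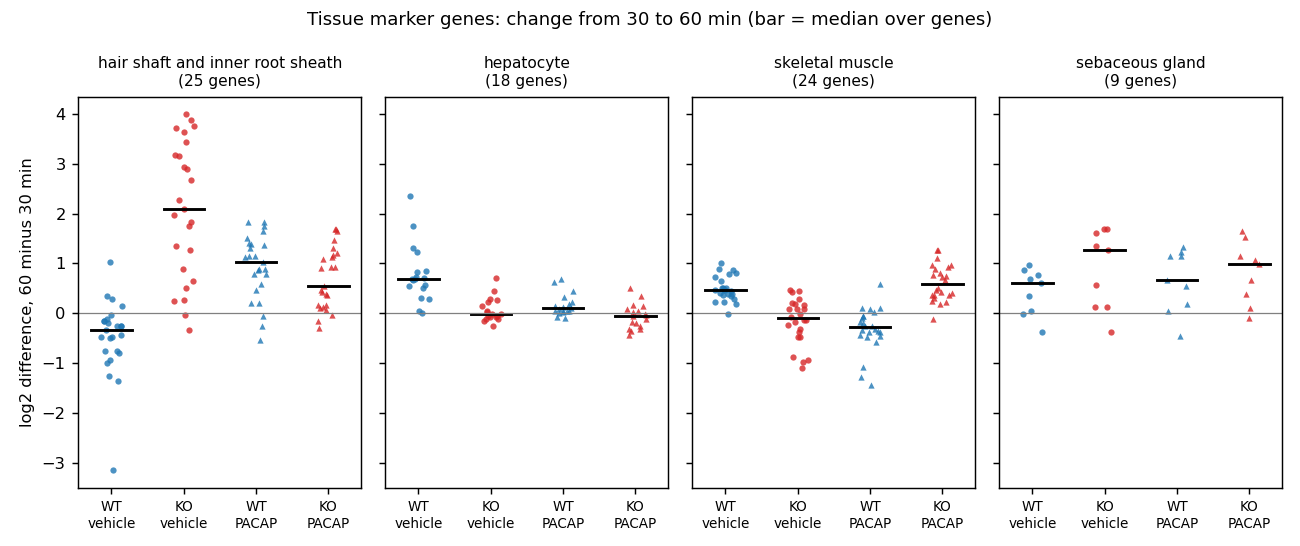
Difference in log2 intensity, 60 minus 30 min, of each measured member of the hair, hepatocyte, skeletal muscle and sebaceous gland lists (points) in 4 pairs of samples, with a bar at the median. Hair genes are high in vehicle-injected PAC1R KO skin and low in vehicle-injected WT skin, and hepatocyte genes, 9 of which passed the filter on dim probes through WT skin at 60 min alone, are shifted in vehicle-injected WT skin.

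The PACAP-injected skin of the same times was then set beside the vehicle-injected skin. It is separate RNA, but each PACAP sample shared its arrays, and so its array position, with the vehicle sample of the same genotype and time. For the PACAP samples alone, 0 of 24905 probes passed an adjusted p of 0.05 for 60 against 30 min (limma, smallest adjusted p 0.153), and 1167 had an unadjusted p under 0.05. The count past the adjusted threshold depends on the processing and was 184 to 693 under 4 of the alternatives. All 15 shared genes were above 0 in both PACAP comparisons, with medians of 0.99 in WT and 1.28 in PAC1R KO skin, where 54.0% and 46.3% of all probes were above 0. Il6 differed by 0.97 and 1.98 in PACAP-injected WT and PAC1R KO skin, Ccl7 by 1.17 and 1.27, Ccl2 by 1.23 and 0.89, Il1b by 0.32 and 0.93, and Cxcl1 by 0.65 and 0.57. Krt35 differed by 1.84 and 1.46. The difference between the PACAP and the vehicle change was past an adjusted p of 0.05 for 0 probes (limma, smallest adjusted p 1), and 79 had an unadjusted p under 0.05, 0.317% of those tested. Under 4 of the alternatives 22 to 36 probes passed.

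Among the probes chosen in vehicle-injected skin at an unadjusted p under 0.05, those that were higher had medians of 0.39 in PACAP-injected WT and 0.24 in PACAP-injected PAC1R KO skin, with 98.4% and 77.8% above 0. Those that were lower had medians of -0.51 and -0.11, with 98.8% and 71.9% below 0, where 46.0% and 53.7% of all probes were below 0. The hair list had medians of 1.03 and 0.55 in PACAP-injected WT and PAC1R KO skin, with 22 of 25 genes above 0 in each, so that of the 4 pairs of samples it was vehicle-injected WT skin that lay below 0. Of the 171 probes higher in vehicle-injected PAC1R KO skin alone, 165 were above 0 in PACAP-injected WT and 164 in PACAP-injected PAC1R KO skin. The sebaceous list had PACAP medians of 0.66 and 0.99. The hepatocyte list had PACAP medians of 0.10 and -0.05, the muscle list -0.29 and 0.59, the erythroid list -0.47 and -0.01 and the list of eosinophils and alternatively activated macrophages 0.15 and -0.02. Of the lists below 0 in both genotypes in vehicle-injected skin, the cell cycle list had PACAP medians of -0.19 and -0.33, while the others lay on opposite sides of 0 in the genotypes, at -0.05 and 0.25 for heat shock, -0.08 and 0.17 for epidermal and -0.59 and 0.09 for clock genes. Fos differed by -0.08 and -1.65 and Egr1 by -0.40 and -0.60 in PACAP-injected WT and PAC1R KO skin.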

How the data were processed

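RNA from forepaw skin was hybridised by the authors to Agilent mouse arrays of 44397 spots (1377 of them controls) in a dye swap. The deposited scanner files hold intensity values of both dyes, read with Feature Extraction (12.0.3.1 per the file headers, 11.0.1.1 in the submitters' processing notes), with probe positions in mm9. The deposited series matrix holds log10 ratios of the processed red over green intensity, with no centring stated, and served for an alternative only.

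Mean signals were background-corrected with normexp (offset 50) on all spots, normalized by loess within and Aquantile between arrays, and used as single-channel log2 intensities in limma 3.58.1 (R 4.3.3). Outlier spots were left out, spots averaged per probe and the dye swap averaged, as 1 replicate, to 4 vehicle samples. Probes well above background on both arrays of at least 1 vehicle sample were tested (24905 of 39429, 20468 of them in all 4). The model held genotype and time over the 4 samples, with Benjamini-Hochberg adjustment and a threshold of 0.05. p-values measure only the spread between these samples. The size rule asked for 2.0-fold on the mean of both dyes with equal signs. "At least" folds use, on each array, the lowest signal well above background. Of the probes, 32526 were matched to a RefSeq gene, and the brightest probe stands for a gene that has more than 1, unless another is named.

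Genes named were the targeted gene, the 15 shared genes, the 5 largest in each direction within each genotype alone (transcript numbers and predicted genes are left out of the text) and members of the lists. Probes just outside the 2.0-fold limit in both genotypes were named as well. So were some probes with the smallest unadjusted p, chosen after their values were seen. The members, lists and size rule were chosen with earlier results of these data known. Simulated data were used to test the scripts. The number of arrays limits the precision.

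Alternatives were other background corrections, offsets and normalizations, spot and probe filters, size limits, each dye alone, each sample left out, a block on dye orientation and the PACAP samples added.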

Additional observations from a re-analysis of the deposited data

Results flagged for a closer look

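Values below are 60 minus 30 min differences in log2 intensity in vehicle-injected skin. They are given because the WT pair and the PAC1R KO pair of samples lay on opposite sides of 0 in both dyes, by at least 1.5-fold for a single gene and by at least 0.1 for a list median. With 1 RNA sample for each genotype and time, the difference between the genotypes was not tested, and genotype and slide cannot be told apart.

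Among the list medians, skeletal muscle was at 0.46 in WT and -0.11 in PAC1R KO skin, hair shaft and inner root sheath at -0.34 and 2.10, erythroid cells at 0.76 and -0.15, and wound epidermis at -0.32 and 0.15. Of single hair genes, Krt33a was at -1 and 3.76, Krt33b at -0.94 and 3.63, Krt34 at -0.79 and 3.18, Krt36 at -3.15 and 1.27, Krt84 at -1.35 and 0.88, Krtap14 at -0.77 and 2.28 and Krtap8-1 at -0.77 and 2.94. Of early response genes, Fos was at 1.00 and -1.16, Egr1 at 0.69 and -0.84 and the matricellular gene Ccn1 at 0.75 and -0.62.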

How the results depend on the processing

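The count of 0 probes past an adjusted p of 0.05 over the vehicle samples (limma, 6303 at an unadjusted p under 0.05) stayed at 0 under the other normalizations, offset, spot and probe filters, each dye alone and no genotype term. Without the genotype term and with each sample left out it ranged from 0 to 224, reaching 224 (221 higher) without WT at 60 min and 9 without PAC1R KO at 60 min. With dye orientation as a replicate block and the RNA sample as a random block (correlation 0.413) it was 4968 (1705 higher, 3263 lower; 20% of probes), where p is too small because the arrays of a sample are technical repeats. With the PACAP samples added it was 2245 (1289 higher, 956 lower), 9.01% of probes.

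The size counts moved with the signals and the size limit. With Feature Extraction processed signals, quantile normalized, which changes background correction and normalization together, they were 1095 in WT, 1703 in PAC1R KO, 438 shared, 56 opposite, 314 in WT only and 682 in KO only (main values 152, 318, 15, 31, 70 and 203). With offset 16 they were 258, 513, 39 shared (36 higher, 3 lower) and 116 in WT only, the other classes being within 1.5 times. At 1.5-fold they were 1161, 1795, 312 (173 higher, 139 lower), 65, 779 and 1418, and at 3.0-fold 31, 177, 3, 12, 7 and 117. With each dye alone, KO ranged from 332 to 544 and shared probes from 19 to 65.

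For PACAP-injected skin, 0 calls became 693, 246, 194 and 184 with processed signals, median centring, offset 16 and probes above background in all 4 vehicle samples. For the PACAP minus vehicle change, 0 became 36, 26, 22 and 26 with processed signals, offset 16, that filter and the series matrix ratios. The causes were not tested. Values of named genes and list medians moved by more than the dye SD (or 0.05 for a list, where that is more) in 128 of 490 and 126 of 640 recomputations. No gene that was at least 2.0-fold different and no list median of at least 0.2 changed sign.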

Other observations

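The medians of lists not given above were as follows. Median 60 minus 30 min differences in WT and PAC1R KO skin were -0.09 and -0.11 for dermal fibroblast genes, 0.04 and 0.04 for adipocyte genes, -0.07 and -0.08 for Schwann cell genes, -0.03 and 0.08 for endothelial genes and 0.03 and 0.26 for melanocyte genes, of which 5 of 8 were measured. They were 0.08 and -0.07 for hypoxia genes and 0.08 and -0.15 for interferon-inducible genes, with all genes at 0.01 and -0.02.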
